A study of Sus scrofa with 6 samples.

Results

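The miR-532 to miR-500 cluster is a group of neighbouring miRNA genes on the X chromosome, and 3 of its mature products were measured in newborn pig liver: ssc-miR-500, ssc-miR-532-5p and ssc-miR-532-3p. These were the rows of the value table with those names, 3 of 236 rows that carry a pig miRNA name. Liver of newborn male piglets was compared between Large White (LW), a lean Western breed taken as the control, and Erhualian (EHL), a fat Chinese breed. Each of the 6 arrays, 3 for each breed, was hybridized with RNA pooled from 2 littermates, so that a breed is represented by 6 piglets of 3 litters and an array stands for a litter. The piglets came from 2 neighbouring farms, and the farm of each litter is not given, so that breed may not be told apart from farm. No piglet was treated, and litter cannot be told apart from array.

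A miRNA is a short RNA that guides silencing proteins to messenger RNAs, mainly through its seed, the bases 2 to 8 from its 5′ end. It is cut from a hairpin, and either arm of the hairpin, named 5p or 3p, can give a mature product. Genes that lie close together are often copied into a common primary transcript, from which each hairpin is then cut separately. In the Sscrofa11.1 gene table the genes MIR532, MIR500 and MIR362 follow each other on chromosome X with no other listed gene between them, flanked by USP27X, a deubiquitinase, and CLCN5, an endosomal chloride and proton exchanger.

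The sequences show how different ssc-miR-500 and ssc-miR-532-5p are from each other, although their genes are neighbours. Both are given as DNA letters from the study's primer list, with the seed in capitals, and ssc-miR-500 corresponds to the product named miR-500a-3p in human.
ssc-miR-500: aTGCACCTgggcaaggattct
ssc-miR-532-5p: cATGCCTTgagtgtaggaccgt
The primer for ssc-miR-500 has 21 bases and that for ssc-miR-532-5p has 22, and their seeds differ. For ssc-miR-532-3p, the opposite arm of the miR-532 hairpin, no sequence was at hand.

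The values are deposited normalized intensities on a linear scale, here called signals, and they are given by array before any ratio. ssc-miR-532-5p had signals of 114, 80 and 64 on LW arrays 1, 2 and 3 and of 123, 192 and 354 on EHL arrays 1, 2 and 3. Each EHL array was above each LW array, but EHL array 1 was close to LW array 1, and EHL array 3 stood far above the rest. ssc-miR-500 had signals of 23, 20 and 16 on the LW arrays and of 24, 34 and 45 on the EHL arrays. The breeds again did not overlap, with EHL array 1 next to LW array 1. ssc-miR-532-3p had signals of 29, 29 and 34 on the LW arrays and of 22 and 26 on EHL arrays 1 and 3, and its cell was blank on EHL array 2. This arm was lower on both EHL arrays that list it, the opposite side from the other arm of its hairpin.

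**Figure D1:**
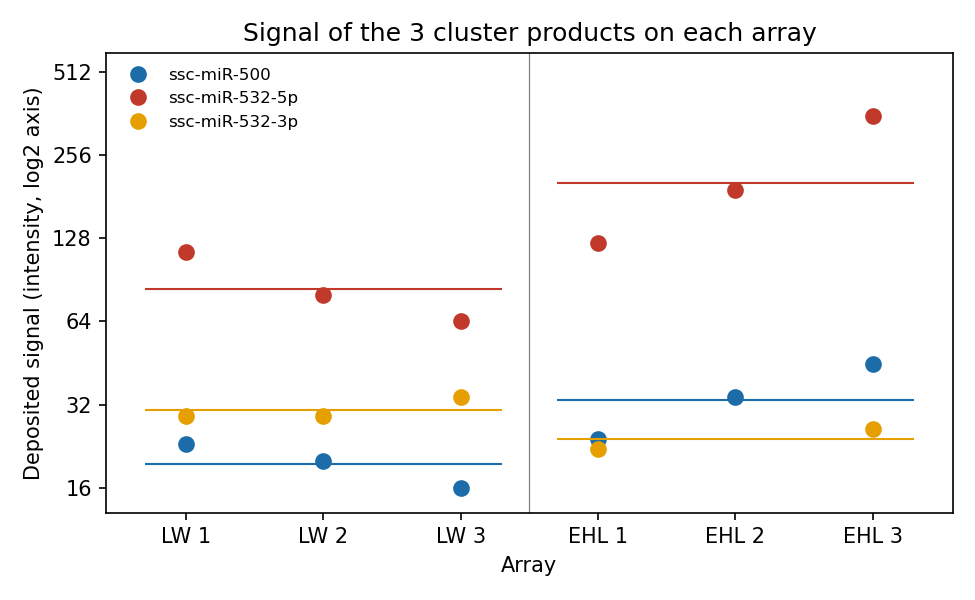
Deposited signal (intensity, log2 axis) of the 3 products on each array, with a bar at the mean log2 signal of each breed. ssc-miR-532-5p runs from 64 to 354, ssc-miR-500 from 16 to 45 and ssc-miR-532-3p from 22 to 34, with no value on EHL array 2.

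In log2 units the mean signal of ssc-miR-532-5p was 6.38 ± 0.42 (SD, n = 3) in LW and 7.67 ± 0.77 (SD, n = 3) in EHL. For ssc-miR-500 it was 4.28 ± 0.26 (SD, n = 3) in LW and 5.05 ± 0.45 (SD, n = 3) in EHL. For ssc-miR-532-3p it was 4.93 ± 0.13 (SD, n = 3) in LW and 4.58 ± 0.17 (SD, n = 2) in EHL. The 5p arm of miR-532 and ssc-miR-500 thus varied more among EHL arrays than among LW arrays, and the 3p arm varied little in either breed. Over the tested miRNAs the median SD was 0.27 in LW and 0.37 in EHL.

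ssc-miR-500 and ssc-miR-532-3p lay near the bottom of the range that the arrays list. The lowest listed signal was between 10 and 16 on each array, and ssc-miR-500 was 1.23 to 4.09 times that of its array. ssc-miR-532-3p was 2.00 to 2.90 times the lowest signal, and ssc-miR-532-5p was 4.92 to 32.2 times. Signals are whole numbers, so that 1 unit at the lowest signal of ssc-miR-500 is a step of 0.09 on the log2 scale. Probes differ in how they bind, so that the signals of different miRNAs are no measure of their relative abundance.

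The question of the breed comparison is which liver miRNAs differ between a fat and a lean breed at birth. The log2 ratio of EHL to LW was 1.28 for ssc-miR-532-5p (SE 0.40, 95% interval 0.37 to 2.19), a 2.43-fold higher signal in EHL. For ssc-miR-500 the log2 ratio was 0.77 (SE 0.30, 95% interval 0.09 to 1.46), a 1.71-fold higher signal. For ssc-miR-532-3p it was -0.35 (SE 0.28, 95% interval -1.0 to 0.30), which spans 0. By limma over the 109 miRNAs listed on 2 or more arrays in both breeds, no member was called at an adjusted p under 0.15. The adjusted p was 0.244 for ssc-miR-532-5p, 0.310 for ssc-miR-500 and 0.684 for ssc-miR-532-3p. The test called 1 of 109 miRNAs in either direction, or 0.917%, and 13 had an unadjusted p under 0.05. SAM, a permutation test with a small constant in its denominator, called 0 of 109 as first run, and 8 of 109, ssc-miR-500 and ssc-miR-532-5p among them, with a larger constant that was tried after the first result had been seen. The original software was not at hand, so the constant it would choose could not be checked. With that software the paper lists ssc-miR-500 and ssc-miR-532-5p among its miRNAs higher in EHL. Its RT-qPCR and its sequencing, both of RNA from the same piglets, also gave higher values in EHL for both. By RT-qPCR the ratio of ssc-miR-532-5p was the larger. By sequencing the ratios were about alike, and that of ssc-miR-532-5p was well below its array ratio. The sequencing used RNA pooled within each breed, so it gives no spread among litters. On the array signals the exact two-sided permutation test gave p = 0.1 for each member. That is the smallest p that 3 arrays against 3, or 3 against 2, can give.

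The 2 members that did not overlap with EHL higher are read against a background of 11 of the 96 miRNAs listed on all 6 arrays, or 11.5%. Of the 13 tested miRNAs with a blank cell, 2 had EHL below LW on every array listed, or 15.4%, and ssc-miR-532-3p was among these 2. The members were chosen with earlier results of these arrays known, so these counts say nothing about clusters in general. In bulk liver, fewer cells of a type and less RNA per cell cannot be told apart.

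In the order of log2 ratios ssc-miR-532-5p ranked 2 of 109, between ssc-miR-184 with 1.72 and ssc-miR-193a-5p with 1.10. ssc-miR-184 was the miRNA called, with an adjusted p of 0.0253 by limma. ssc-miR-500 ranked 5, between ssc-miR-378 with 1.02 and ssc-miR-185 with 0.76. ssc-miR-532-3p ranked 89, between ssc-miR-139-5p with -0.35 and ssc-miR-342 with -0.37. Each member lay within its own standard error of at least 1 of its neighbours in this order.

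**Figure D2:**
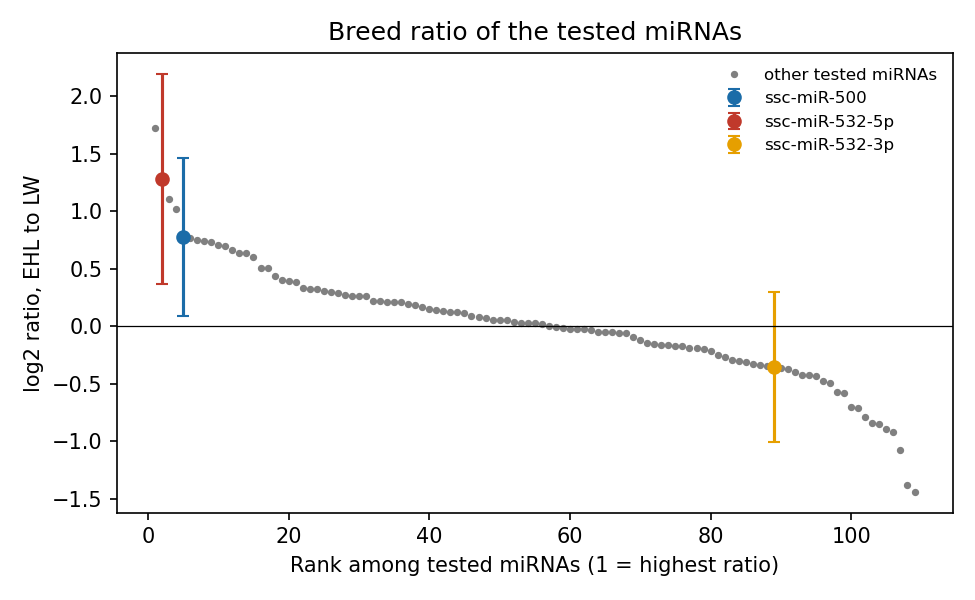
log2 ratio of EHL to LW for the 109 tested miRNAs against their rank, with the 95% interval drawn for the 3 cluster products. ssc-miR-532-5p and ssc-miR-500 are at ranks 2 and 5 with intervals above 0, and ssc-miR-532-3p is at rank 89 with an interval that spans 0.

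Single EHL arrays had much weight in these tests, in opposite directions. Without EHL array 3 the log2 ratio fell to 0.88 for ssc-miR-532-5p and 0.55 for ssc-miR-500, with adjusted p of 0.527 and 0.606 by limma. Without EHL array 1 the log2 ratio was 1.64 for ssc-miR-532-5p and 1.01 for ssc-miR-500, and both were called, with adjusted p of 0.0737 and 0.0811 by limma. That fit called 13 of 109 miRNAs higher in EHL, or 11.9%, so that the members' calls stand among many. With array weights, which gave EHL array 1 the lowest weight (0.602), ssc-miR-532-5p was called at an adjusted p of 0.0809 and ssc-miR-500 was not. Array weights called 4 of 109 higher in EHL, or 3.67%. Over the alternatives fitted with limma the adjusted p ranged from 0.00986 to 0.882 for ssc-miR-532-5p and from 0.0466 to 0.982 for ssc-miR-500. Both lowest values come from a fit without EHL array 1 that was added after seeing the data, and without such added fits the lowest were 0.0737 and 0.0811. Over the 10 runs of SAM the q ranged from 0 to 0.271 for ssc-miR-532-5p and from 0.0938 to 0.271 for ssc-miR-500.

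**Figure D3:**
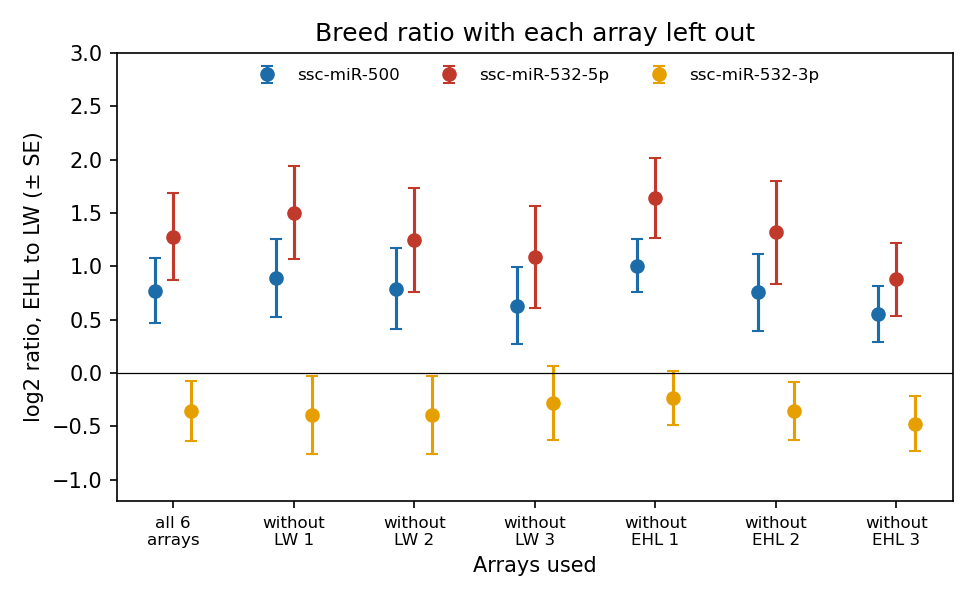
log2 ratio of EHL to LW (± SE) of the 3 products with all 6 arrays and with each array left out. ssc-miR-532-5p lies between 0.88 and 1.64 and ssc-miR-500 between 0.55 and 1.01. Both are highest without EHL array 1 and lowest without EHL array 3, and ssc-miR-532-3p stays below 0.

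EHL array 1 also stood apart in a marker of red blood cells. ssc-miR-451, an erythroid miRNA, had a signal of 376 on EHL array 1 against 54 and 63 on EHL arrays 2 and 3, and of 220, 100 and 134 on the LW arrays. The other erythroid marker, ssc-miR-486, differed less, with 34, 24 and 22 on the EHL arrays and 29, 24 and 25 on the LW arrays. Both erythroid markers were tested and neither was called. Their summed signal, mostly that of ssc-miR-451, was 410, 78 and 85 on the EHL arrays and 249, 124 and 159 on the LW arrays. The EHL array with the highest sum was thus the EHL array with the lowest signals of ssc-miR-500 and ssc-miR-532-5p. In LW the array with the highest sum had the highest signals of both, so that the order was not the same in the breeds. The part of blood content in the members' ratios was not tested.

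The cluster mates ssc-miR-500 and ssc-miR-532-5p varied together across arrays within both breeds. On the LW arrays ssc-miR-532-5p deviated from its breed mean by 0.45, -0.06 and -0.38 on the log2 scale, and ssc-miR-500 by 0.24, 0.04 and -0.28. On the EHL arrays ssc-miR-532-5p deviated by -0.72, -0.08 and 0.80, and ssc-miR-500 by -0.47, 0.03 and 0.44. The arrays had the same order for both miRNAs in each breed, and the deviations had the same sign on 4 of 6 arrays, with both close to 0 on the other 2. The deviations of ssc-miR-532-5p were the wider ones on each array. The r of this pair over the 6 arrays is not given as a result, since the breeds did not overlap for either miRNA and the breed difference enters it.

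For ssc-miR-532-3p too few values were listed to say whether it follows the other arm of its hairpin. It deviated by -0.08, -0.08 and 0.15 on the LW arrays and by -0.12 and 0.12 on EHL arrays 1 and 3. Its deviations had the sign of those of ssc-miR-532-5p on 3 of 5 arrays, and with 2 values in EHL the signs on those arrays are a single comparison. In LW it was highest on array 3, where ssc-miR-532-5p and ssc-miR-500 were lowest, and in EHL all 3 were higher on array 3 than on array 1. These deviations amount to a few units of signal.

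Among the 95 other miRNAs listed on all 6 arrays, ordered as a description by Pearson r of log2 signal over the 6 arrays, which carries the breed difference, ssc-miR-500 was the one most like ssc-miR-532-5p. In the order for ssc-miR-500, ssc-miR-532-5p ranked 2, after ssc-miR-143-3p. By this measure the 3 most like ssc-miR-532-5p were ssc-miR-500, ssc-miR-143-3p and ssc-miR-24, and for ssc-miR-500 they were ssc-miR-143-3p, ssc-miR-532-5p and ssc-miR-24. Such likeness was not rare: 12 of 95 miRNAs had an r over 0.9 with ssc-miR-500 and 11 of 95 with ssc-miR-532-5p. With deviations from the breed means, which remove the breed difference, ssc-miR-500 again ranked 1 for ssc-miR-532-5p, and ssc-miR-532-5p ranked 3 for ssc-miR-500, after 2 miRNAs outside the cluster. By deviations 10 of 95 had an r over 0.9 with ssc-miR-500 and 14 of 95 with ssc-miR-532-5p.

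ssc-miR-143-3p, a miRNA of smooth muscle and other mesenchymal cells, had signals of 306, 264 and 212 on the LW arrays and of 308, 398 and 484 on the EHL arrays. It had the array order of the cluster mates in each breed, with a log2 ratio of 0.60 and an adjusted p of 0.443 by limma. ssc-miR-24 had signals of 395, 357 and 274 on the LW arrays and of 426, 477 and 814 on the EHL arrays, again in that order, with a log2 ratio of 0.70 and an adjusted p of 0.415 by limma. Of 10 mesenchymal markers 7 were tested, 0 were called by limma and 4 had a ratio above 0, with a median log2 ratio of 0.08 beside 0.02 over all 109 tested. The list leaves out ssc-miR-199b*, with a log2 ratio of -0.58, and with it, added after its value was seen, 4 of 8 were above 0 and the median was 0.03. Their summed signal was 6041, 5884 and 5108 on the LW arrays and 4588, 7234 and 5326 on the EHL arrays, and the highest mean signal in the list was that of ssc-miR-214. In LW the sums had the array order of the cluster mates, and in EHL array 2 was highest. The part of mesenchymal cells in the members' ratios was not tested.

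**Figure D4:**
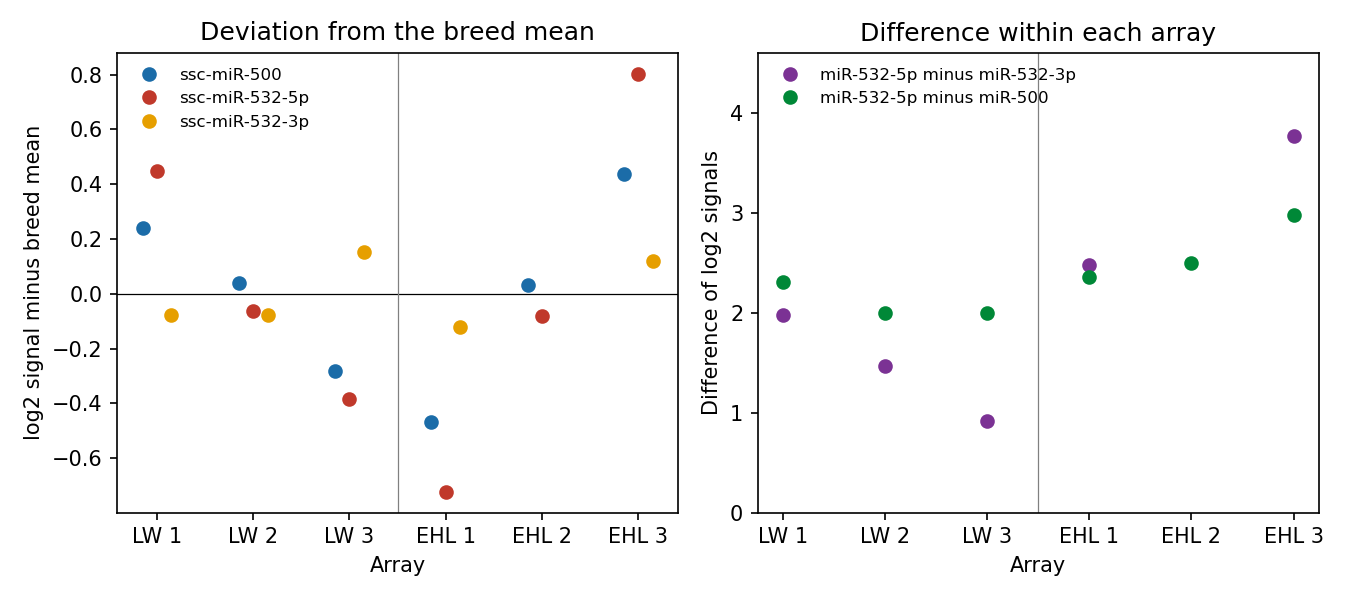
Left, deviation of log2 signal from the breed mean for the 3 products on each array; right, the difference of log2 signals within each array. ssc-miR-500 and ssc-miR-532-5p have the same order of arrays in each breed, and both differences are higher on each EHL array listed than on each LW array, for the difference with ssc-miR-500 by as little as 0.05.

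The arm difference of miR-532 is log2 signal of the 5p arm minus that of the 3p arm on the same array, so that a scaling of the whole array cancels. The authors' background subtraction and LOWESS, a locally weighted regression, need not cancel, since the arms differ in signal. It was 1.97, 1.46 and 0.91 on the LW arrays and 2.48 and 3.77 on EHL arrays 1 and 3, and EHL array 2 gave no value. Both EHL arrays listed lay above the LW arrays, and the spread within each breed was wide. The mean was 1.45 ± 0.53 (SD, n = 3) in LW and 3.13 ± 0.91 (SD, n = 2) in EHL. The difference of EHL minus LW was 1.67, so that the ratio of the arms was 3.19-fold higher in EHL, with p = 0.1 in the exact two-sided permutation test, the smallest it can give here. With this few arrays the test could not pass a threshold of 0.05, and without EHL array 3 the difference was 1.03. The difference does not give which arm is the more abundant.

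The same breed difference was taken for other hairpins. The array names 42 pairs of arms, and 9 had both arms listed on 2 or more arrays in both breeds. The breed difference for miR-532 was the largest in size of these 9, a looser set than the 5 other pairs listed on all 6 arrays, taken since miR-532 has a blank. Among the 5, miR-885 had the largest in size with -0.98, and miR-424 the smallest with -0.06. The median size over the 8 other pairs was 0.36, and 2 of the 8 had breeds that did not overlap.

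The difference between ssc-miR-532-5p and ssc-miR-500 within an array was computed after the values had been seen. It was 2.31, 2.00 and 2.00 on the LW arrays and 2.36, 2.50 and 2.98 on the EHL arrays. EHL array 1 was above LW array 1 by 0.05, less than the 0.06 that 1 unit of signal of ssc-miR-500 makes there, so that the breeds were not separated beyond the rounding of the signals. The mean was 2.10 ± 0.18 (SD, n = 3) in LW and 2.61 ± 0.32 (SD, n = 3) in EHL, a difference of 0.51 with p = 0.1 in the exact two-sided permutation test, again the smallest it can give. Without EHL array 3 this breed difference was 0.32.

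The array has 1 further row of the cluster, ssc-miR-362. Its cell was blank on all LW arrays and on EHL array 2, and its signal was 22 on EHL array 1 and 23 on EHL array 3. It was not tested, and a blank cell gives no level. In the paper's sequencing of RNA pooled within each breed, miR-362 was higher in EHL.

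Elsewhere on chromosome X, 29 further rows matched genes on that chromosome alone, ssc-miR-362 among them. Of these 18 were blank on all 6 arrays and 7 were tested, with 4 ratios above 0 and 3 below, and 0 called by limma. Their median log2 ratio was 0.40, beside 0.02 over all 109 tested. ssc-miR-221, a miRNA that targets cell-cycle inhibitors, was the 1 of these 7 whose breeds did not overlap, with signals of 547, 320 and 387 on the LW arrays and of 203, 217 and 298 on the EHL arrays. EHL was likewise below LW without overlap for 7 of the 96 miRNAs listed on all 6 arrays, or 7.29%. The log2 ratio of ssc-miR-221 was -0.79, with an adjusted p of 0.291 by limma, opposite in sign to those of ssc-miR-500 and ssc-miR-532-5p.

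The labelled tissue was checked against hepatocyte markers. ssc-miR-122, the main miRNA of hepatocytes, had signals of 28071, 18958 and 23800 on the LW arrays and of 20649, 20007 and 18287 on the EHL arrays. Of 6 hepatocyte markers 5 were tested, 0 were called by limma and 3 had a ratio above 0, with a median log2 ratio of 0.12. The breeds did not overlap for 2 of the 5, the arms of miR-885, with log2 ratios of -0.71 for ssc-miR-885-5p and 0.27 for ssc-miR-885-3p, beside 18 of the 96 miRNAs listed on all 6 arrays in either direction, or 18.8%. The hepatocyte marker not tested, ssc-miR-194, was blank on all 6 arrays. Of 8 markers of striated muscle 7 were blank on all 6 arrays, and of 3 leukocyte markers 2 were, beside 88 of all 236 named miRNAs. The 2 blank leukocyte markers, miR-155 and miR-146a, were found by the paper's sequencing. A blank cell thus does not show that a cell type was absent. The endothelial ssc-miR-126 had signals of 2209, 4098 and 3436 on the LW arrays and of 4524, 3110 and 3506 on the EHL arrays, which overlap.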

How the data were processed

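Small RNA of 6 liver samples was measured on single-colour (Cy5) pig miRNA arrays with miRBase release 16 probes. The authors subtracted background, normalized by LOWESS and deposited the linear intensity of each probe on each array. For miRNAs its arrays did not detect, the paper names weak fluorescence and differences from the probe sequence, and it states no cutoff for blank cells. On log2 signals the breeds were tested with limma 3.58.1 (lmFit, eBayes, breed as the term) in R 4.3.3, for named miRNAs listed on 2 or more arrays in both breeds, with p-values adjusted by Benjamini-Hochberg over all 109 and a threshold of 0.15. Beside it stands the exact two-sided permutation test over arrays. limma and SAM were tested on simulated data with independent noise and a shift larger than any member's log2 ratio. That run does not show how often ratios of the members' size would be called. Python 3.11.15 with numpy 2.4.6 and pandas 2.3.3 did the rest. Precision is limited by how few arrays there are.

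Named were the members, the other cluster row, chromosome X rows that were called or did not overlap, the 3 rows most like a member, the neighbours in ratio order, marker lists and arm pairs. Shared seeds could be sought only among the study's 17 other miRNA primers, of which 0 had the seed of ssc-miR-500 or ssc-miR-532-5p, since no table of mature miRNAs was at hand. Members and lists were chosen with earlier results of these data known. Genes were matched by name to the Sscrofa11.1 gene table, no positions are given, and the 100 rows with an LRS label were left out of the main test.

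SAM was recomputed from its published statistic with 20 relabellings. Its small constant was first chosen by a search over 10 bins of row spread, an adaptation to a small table that was not compared with the original software and may choose otherwise than it does. This first version is the one called SAM. After that result had been seen, 5 constants were tried on each of 2 sets of miRNAs, 10 runs in all. The fits without 1 array used the 109 miRNAs where both breeds still had a value, and were run again, after the first results had been seen, with the minimum of 2 arrays for each breed applied again.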

Additional observations from a re-analysis of the deposited data

How the results depend on the processing

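The log2 ratios kept their sign under each alternative, 26 for ssc-miR-500, 27 for ssc-miR-532-5p and 21 for ssc-miR-532-3p, which was called under none. With each array left out, they ran from 0.55 to 1.01 for ssc-miR-500, from 0.88 to 1.64 for ssc-miR-532-5p and from -0.48 to -0.23 for ssc-miR-532-3p, where a lone EHL array is assumed to vary like the others. With blanks at the lowest signal the last was -0.55. Of the alternatives planned, the fit without EHL array 1 called ssc-miR-500 (1.01) and ssc-miR-532-5p (1.64), and array weights called ssc-miR-532-5p (1.39). With the replicate block the ratios were 0.77, 1.28 and -0.39 and none was called.

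SAM with its constant chosen by search set the constant to 0 and called 0 miRNAs higher in EHL, or 0%, and 0 lower, with q of 0.269 for both ssc-miR-500 and ssc-miR-532-5p. Chosen after seeing the data, the 5th percentile as constant and the search over the 96 miRNAs listed on all 6 arrays each called 8 higher and 0 lower. Both then called ssc-miR-500 (0.77) and ssc-miR-532-5p (1.28), with q between 0.075 and 0.0986. Over the 10 runs of SAM neither was called at a constant of 0 on either set of miRNAs, and both were above 0.

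limma called 1 miRNA higher in EHL and 0 lower. Higher in EHL were 0 with the replicate block and 4 with array weights, and 0 to 13 with each array left out. Lower were 1 with quantile normalization, 3 with array weights, 1 with the LRS rows, and 0 to 6 with each array left out, the highest counts of both being those without EHL array 1. With the minimum of 2 arrays applied again, chosen after seeing the data, these were 0 to 15 higher and 0 to 9 lower, and without EHL array 1 ssc-miR-500 and ssc-miR-532-5p were again called. The cause was not tested.

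The arm difference of miR-532 was 1.67 and ran from 1.03 to 2.32 with each array left out. It was 1.68 with the replicate block (2 numbers), and 1.83 with the blank of EHL array 2 at the lowest signal, chosen after seeing the data. The difference of ssc-miR-532-5p and ssc-miR-500 ran from 0.32 to 0.63. Quantile normalization gave no value for ssc-miR-532-3p, nor did the filter on all 6 arrays, and neither it nor ssc-miR-500 passed a mean signal of 32. The likeness rank of ssc-miR-500 was 1 under both alternatives. Signals of ssc-miR-500 were as low as 1.23 times the lowest listed.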
